A study of Mus musculus with 4 samples.

Results

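The genes described here encode the machinery by which a cell detects DNA in its cytosol, together with the p200 family of interferon-inducible DNA-binding proteins. They are Cgas (Mb21d1 in older annotation), Sting1 (Tmem173), Aim2, Ifi203, Ifi204, Ifi205, Mndal and Trex1, 8 of the 21368 gene symbols that could be named on the array. They were chosen by name, and every probe whose RefSeq accession belonged to one of them was used, which gave 13 probes: 4 for Ifi203, 3 for Cgas and 1 for each of the others. Of the 8 genes, 7 were tested; Ifi205 was not, because its probe was well above background on 1 array only. A gene that entered the test through the group where it was bright had to differ to some extent, so counts over the tested genes are descriptions.

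RNA was measured in intestinal cells with high Lgr5, sorted by flow cytometry from 2 kinds of mice. Knockout mice were Ifnar1-/-:Lgr5-EGFP-Ires-CreERT2, lacking a chain of the receptor for type I interferon, and control mice were Lgr5-EGFP-Ires-CreERT2. Both groups carried the Lgr5 knock-in reporter and both received poly(I:C), a double-stranded RNA mimic that induces interferon, intraperitoneally at 2 mg/kg daily for 1 week. Each group had 2 samples on single-colour arrays, and samples with the same number shared a slide and a scan, so slide 1 held knockout 1 and control 1 and slide 2 held knockout 2 and control 2. No untreated mice are among the samples, ages are not given, and the labels do not say whether the samples of a group came from separate animals, so p-values reflect only how far these samples spread, which may be technical. The receptor loss was not limited to the epithelium by the genotype as labelled.

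In the cytosol, cGAS binds double-stranded DNA and makes a cyclic dinucleotide that activates STING on the endoplasmic reticulum, which recruits the kinase TBK1 and the factor IRF3 to switch on interferon genes. TREX1 is an exonuclease that degrades cytosolic DNA and so restrains this pathway. AIM2 also binds DNA but assembles an inflammasome with ASC and caspase-1. The p200 proteins, to which AIM2 is related, pair a pyrin domain with DNA-binding HIN domains in most members; in the mouse their genes form a cluster on chromosome 1, and many of them are induced by interferon. IFI204 is usually regarded as the mouse relative closest to human IFI16.

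Checks of the samples came first. The targeted gene, Ifnar1, stood at -1.72 and -2.23 in knockout 1 and 2, against -0.18 and -0.32 in control 1 and 2 (levels throughout are log2 signal with the 75th percentile of the same array subtracted), and fell by 1.73 on the log2 scale with the slide as a block (limma, adjusted p = 0.0368). Whether its probes lie inside the deleted stretch is not stated in the sources used here, so this is a limited check of the labels. Lgr5 stood at 3.36 and 2.98 in the knockout, against 3.08 and 2.87 in the control, and the 11 stem cell and epithelial markers with a probe were well above background on every array. Between 63.3% and 67.7% of non-control spots were well above background per array and 0 were saturated. Over 24866 genes, limma without a slide term called 0 lower and 0 higher in the knockout after Benjamini-Hochberg adjustment (0% each; 427 and 256 at an unadjusted p under 0.05, or 1.72% and 1.03%), and with the slide as a block it called 107 lower and 14 higher (0.43% and 0.0563%). The fit without a slide term was planned as the main test, with the slide block as an alternative. A gene is said to have fallen only where the fit with the slide block called it. That fit has 1 residual degree of freedom and borrows its variance from an intensity trend; without the trend it called 0 genes in either direction.

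Sequence upstream of the p200 genes is shown first because Mndal, Ifi203, Ifi204 and Ifi205, which had the lowest signals relative to control among the 8 genes, belong to this family. The table of 300-base windows from RefSeq (build GRCm38.p6, 250 bases before to 50 after a gene's start) held 12 of the 13 p200 genes of the cluster, and Ifi204 is the gene without an entry. The windows were searched on both strands for GAAA, any 2 bases and GAAA again, the core of the interferon-stimulated response element, and for TTCNNNGAA, the gamma-activated site. The first was found in 9 of the 12 p200 genes (75%), against 1079 of 27025 genes in the whole table (3.99%) and 12 of the 30 interferon-stimulated genes with a window (40%). The 2 matches that Ifi205 has do not overlap. The second motif was found in Ifi202b alone of the 12 p200 genes, against 2582 of 27025 genes in the whole table (9.55%). Capitals mark the match in these 24-base stretches, each read 5′ to 3′ on its gene's strand.
Mndal, chr1:173880206-173880229, minus strand: gctgggGAAATCGAAAgctatgaa
Ifi203, chr1:173942510-173942533, minus strand: gctgggGAAATCGAAAgctatgaa
Ifi205, chr1:174031872-174031895, minus strand: gccaggGAAATTGAAAgctatgaa
Ifi211, chr1:173913066-173913089, minus strand: gccaggGAAATTGAAAgctatgaa
Ifi208, chr1:173673601-173673624, plus strand: tctgagGAAATCGAAAgctatgaa
Ifi206, chr1:173491341-173491364, minus strand: tctgagGAAATCGAAAgctatgaa
Ifi213, chr1:173599328-173599351, minus strand: tctgagGAAATCGAAAgctatgaa
Ifi214, chr1:173536019-173536042, minus strand: tctgagGAAATCGAAAgcgatgca
Ifi207, chr1:173741833-173741856, minus strand: gccaggGAAATCGAAAattaagaa
The letters around the match are shared too: Mndal and Ifi203 have the same 24 bases, as do Ifi208, Ifi206 and Ifi213, and Ifi205 has the same 24 bases as Ifi211. RefSeq gives Mndal and Ifi203 2 annotated starts each. The match shown begins 36 bases before the first start of Mndal and 35 bases before the second start of Ifi203. The window at the second start of Mndal holds another match, on the opposite strand, 54 bases before that start, and the window at the first start of Ifi203 holds none. Windows of Aim2, Ifi209, Ifi202b, Cgas and Trex1 had no match to the first motif. No window of Sting1 is described here. A match is a description of letters and was not tested for binding.

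The whole windows are shown for Mndal and Ifi203, whose windows are nearly alike, and for Ifi208, a p200 gene with the same core match whose difference was -0.24.
Mndal, chr1:173880138-173880437, minus strand: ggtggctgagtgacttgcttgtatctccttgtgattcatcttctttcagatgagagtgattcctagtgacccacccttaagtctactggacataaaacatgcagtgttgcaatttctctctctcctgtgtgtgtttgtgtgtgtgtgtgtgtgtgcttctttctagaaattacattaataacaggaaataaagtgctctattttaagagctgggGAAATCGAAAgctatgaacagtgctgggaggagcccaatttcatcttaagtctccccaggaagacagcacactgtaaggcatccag
Ifi203, chr1:173942443-173942742, minus strand: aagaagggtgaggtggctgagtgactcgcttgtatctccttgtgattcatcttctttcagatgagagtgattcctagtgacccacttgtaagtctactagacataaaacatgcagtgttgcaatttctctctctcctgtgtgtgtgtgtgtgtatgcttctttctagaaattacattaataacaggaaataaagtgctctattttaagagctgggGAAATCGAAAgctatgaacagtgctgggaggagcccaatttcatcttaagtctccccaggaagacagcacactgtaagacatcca
Ifi208, chr1:173673415-173673714, plus strand: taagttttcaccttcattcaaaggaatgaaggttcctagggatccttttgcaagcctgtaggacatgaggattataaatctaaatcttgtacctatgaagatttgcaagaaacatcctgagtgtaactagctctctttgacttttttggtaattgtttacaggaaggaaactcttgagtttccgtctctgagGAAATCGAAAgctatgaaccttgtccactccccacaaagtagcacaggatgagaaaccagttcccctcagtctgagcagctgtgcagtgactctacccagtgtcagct
Aligned end to end, the windows of Mndal and Ifi203 were identical at 282 of 311 columns (90.7%), against 182 of 363 for Ifi203 and Ifi208 (50.1%). This likeness is of promoter windows. Whether the probes of Ifi203, Mndal and other members of the cluster separate their transcripts was not tested, so their values are uncertain in that respect.

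Among the p200 genes, Mndal and Ifi203 were well above background in both controls and in 1 knockout sample each, Ifi204 in both controls and no knockout sample, and Ifi205 in 1 control only, each with the knockout lower on both slides. Aim2 and Ifi208 overlapped between the groups. Both knockout samples lay below both control samples for Mndal, Ifi203, Ifi204 and, among the other genes described, Cgas, that is 4 of the 7 tested, against 11.5% of all genes tested. In 5 of the 7 the knockout was lower on both slides, against 27.5% of all genes. The median difference over the 7 was -0.51 (log2, knockout minus control), against 0.02 over all genes. That median is the value of Sting1, so setting Ifi204, which lies lower, to its bound could not move it.

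**Figure D1:**
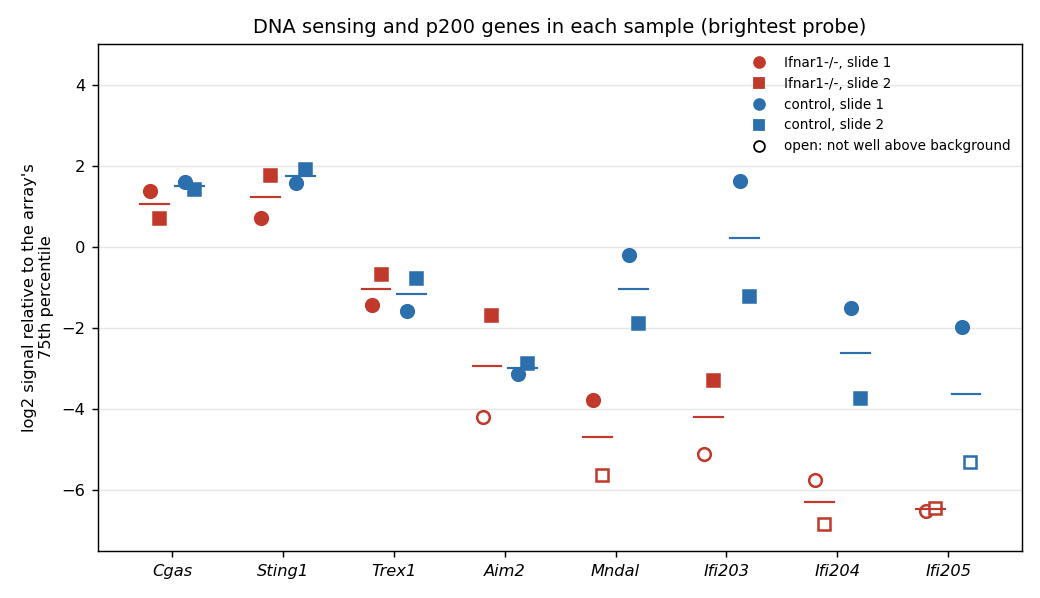
Level of each of the 8 genes by sample (y axis, log2 signal minus the 75th percentile of its array; brightest probe; bars, group means of 2 arrays; open symbols, not well above background; heights are not comparable between genes, since each has its own probe). Mndal, Ifi203 and Ifi204 have both Ifnar1-/- points below both control points, whereas those of Sting1, Aim2 and Trex1 overlap.

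Mndal, the p200 gene whose promoter window is closest to that of Ifi203, was at -3.78 and -5.62 in knockout 1 and 2, against -0.20 and -1.88 in control 1 and 2. The groups did not overlap. The gap was -3.58 on slide 1. On slide 2 it was -3.74, with the dim knockout signal entering as measured. With that signal as measured, Mndal fell by 3.66 ± 0.28 on the log2 scale (SE, limma with slide block, adjusted p = 0.0135). The size and the SE rest partly on it. The probe was well above background in 1 knockout sample, so it entered the test through the control group. In the fit with no slide term the SE was 0.81 and the gene did not pass (adjusted p = 0.777), and neither did the block fit without the variance trend (adjusted p = 0.405). Normexp background correction was run with an offset of 50 added to each signal, which compresses differences between dim signals. With it the difference was -1.35. On slide 1, where both signals were well above background, it was 11.9-fold lower in the knockout. On slide 2 the knockout signal was not well above background, and Mndal was at least 6.37-fold lower there. For such bounds the dim knockout signal was replaced by the lowest signal of any spot flagged well above background on its array, unless the probe's own was higher. Aim2 in knockout 1 lay above that value without being flagged, so these folds are bounds against that value only. It was the 1 gene of the 7 tested that was called, against 0.43% of all genes called lower.

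Ifi203, whose product binds DNA through a HIN domain, was uneven between slides. Its brightest probe stood at -5.11 and -3.30 in knockout 1 and 2, against 1.63 and -1.21 in control 1 and 2. Control 1 was 7.15-fold brighter than control 2, the knockout signal on slide 1 was not well above background, and the groups did not overlap. The difference was -4.41 ± 1.01 (SE; limma with slide block, adjusted p = 0.23; adjusted p = 0.906 in the fit with no slide term), made of -6.74 on slide 1 and -2.08 on slide 2. That is at least 57.9-fold lower on slide 1 and 4.23-fold lower on slide 2, where both signals were measured. With normexp background correction in place of the scanner's own, and the same offset, the difference was -2.31.

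The 4 probes for Ifi203 lay on one side. From the brightest to the dimmest they differed by -4.41, -3.89, -3.10 and -1.21, with dim signals entering as measured. On the first and second, both well above background in the controls, control 1 was 7.15- and 7.09-fold brighter than control 2. Only the first was well above background in a knockout sample, and the dimmest 2 were so on 1 array, that of control 1. Tested probe by probe with the slide block, neither of the 2 probes bright enough to enter was called (limma, adjusted p = 0.211 and 0.135; 0.381% of all 35422 probes were called lower).

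**Figure D2:**
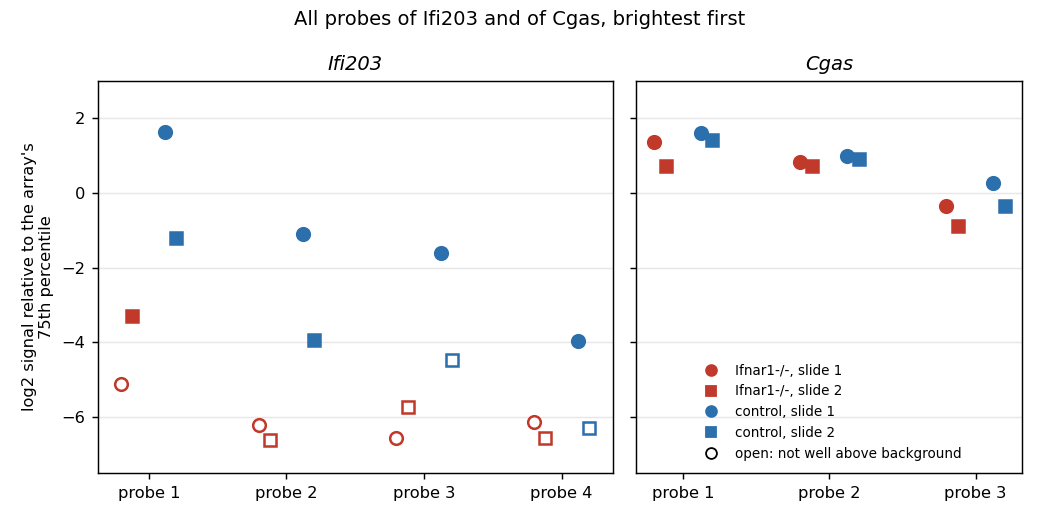
All 4 probes of Ifi203 and all 3 of Cgas, brightest first, in each sample (y axis, log2 signal minus the 75th percentile of its array; open symbols, not well above background). On the 2 brightest probes of Ifi203, control 1 lies far above control 2. The 4 samples of Cgas lie closer together, and on its dimmest probe they run from -0.87 to 0.27.

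Ifi204, the p204 protein gene, was not well above background in either knockout sample. It stood at -5.74 and -6.83 in knockout 1 and 2, against -1.52 and -3.72 in control 1 and 2, with no overlap. Ifi204 was at least 3.40-fold lower in the knockout (group means -6.29 and -2.62; limma with slide block, adjusted p = 0.0788; adjusted p = 0.917 in the fit with no slide term). With normexp background correction and the same offset the difference was -0.78. Within slides it was at least 6.50-fold lower on slide 1 and at least 1.78-fold lower on slide 2. Control 1 was 4.56-fold brighter than control 2.

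Ifi205, at the far end of the cluster, was measured in control 1 alone. Its levels were -6.52 and -6.43 in knockout 1 and 2, against -1.97 and -5.31 in control 1 and 2, of which only -1.97 is well above background. On slide 1 it was at least 4.76-fold lower in the knockout, and on slide 2 both signals were below that mark, so no fold is given. It had no test.

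Aim2, the inflammasome sensor, moved in opposite directions on the slides. It stood at -4.20 and -1.68 in knockout 1 and 2, against -3.14 and -2.86 in control 1 and 2, so the knockout samples lay on either side of the controls. The difference was 0.05 with a 95% interval of -1.32 to 1.43 (limma with slide block, adjusted p = 0.979; -1.07 on slide 1 and 1.17 on slide 2). Knockout 1 was not well above background. Left out 1 at a time, knockout 2 and control 1 turned the difference to -1.20 and -0.08. An interval this wide leaves changes of more than 2-fold in either direction within it.

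The cluster holds 8 further p200 genes. Ifi202b, Ifi207, Ifi213 and Ifi214 were not well above background on any array, and Ifi206 and Ifi211 have no probe named here. Ifi208 was at -0.16 and -0.44 in the knockout, against 0.15 and -0.27 in the control on its brightest probe, a difference of -0.24 (limma with slide block, adjusted p = 0.529). Ifi209 was at -6.50 and -4.04 in the knockout, against -4.13 and -4.03 in the control, a gap present on slide 1 only and resting on 1 dim knockout signal. In the order that RefSeq gives the 13 genes, Ifi204, Mndal, Ifi203 and Ifi205 are the 8th, 9th, 11th and 13th, and each of the other measured genes, Aim2, Ifi209 and Ifi208, lies before them.

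**Figure D3:**
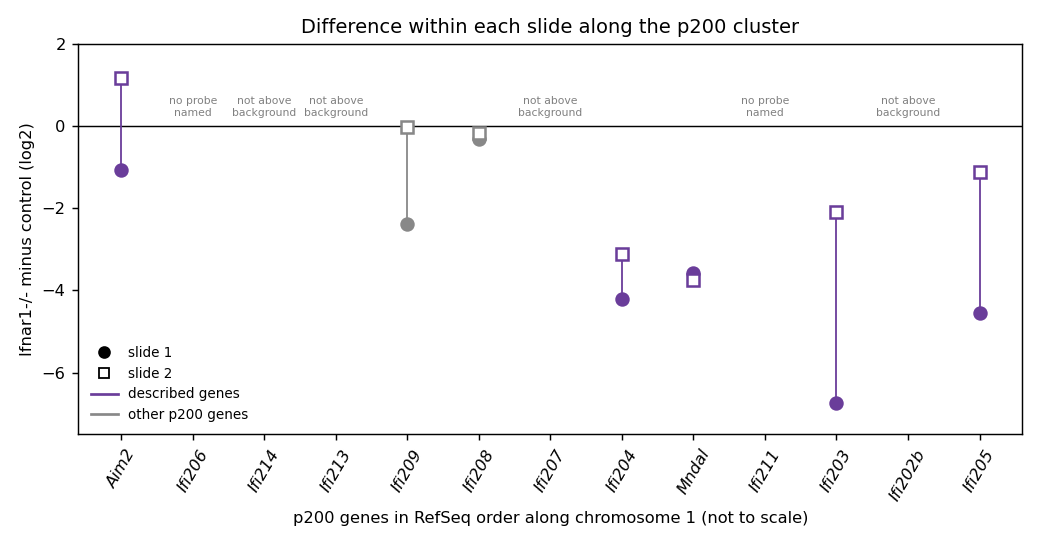
Ifnar1-/- minus control difference (y axis, log2) within slide 1 (filled circles) and slide 2 (open squares) for the brightest probe of each p200 gene, in gene order. Ifi204, Mndal, Ifi203 and Ifi205 lie below 0 on both slides; dim signals enter as measured, so their differences are not bounds.

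The sensor cGAS and its adaptor STING kept a measurable signal in every sample and differed by less than 1 on the log2 scale on each slide. Cgas stood at 1.37 and 0.71 in knockout 1 and 2, against 1.60 and 1.42 in control 1 and 2. On this brightest probe the knockout samples were lower without overlap, by -0.22 on slide 1 and -0.71 on slide 2. The mean difference was -0.47 with a 95% interval of -0.84 to -0.09 (limma with slide block, adjusted p = 0.337; with no slide term the interval was -1.16 to 0.23, adjusted p = 1.000). The other 2 probes for Cgas differed by -0.16 and -0.57, so the direction held on all 3 while the size varied. On the dimmest probe the groups overlapped, with knockout 1 (-0.343) just above control 2 (-0.347). Leaving out 1 array moved the difference of the brightest probe between -0.79 (without knockout 1) and -0.14 (without knockout 2).

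Sting1, which relays the cGAS signal, stood at 0.71 and 1.77 in knockout 1 and 2, against 1.56 and 1.92 in control 1 and 2. Knockout 2 lay between the control samples, so the groups overlapped, and slide 1 carried most of the gap (-0.86, against -0.16 on slide 2). The mean difference was -0.51 with a 95% interval of -0.96 to -0.06 (limma with slide block, adjusted p = 0.372). With no slide term the interval was -1.46 to 0.44. The difference was 0.02 without knockout 1 and -1.04 without knockout 2.

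Trex1, the exonuclease, followed the slides and not the genotype. It stood at -1.43 and -0.67 in knockout 1 and 2, against -1.59 and -0.76 in control 1 and 2. Both slide 2 samples were above both slide 1 samples, and the difference was 0.12 with a 95% interval of -0.31 to 0.55 (limma with slide block, adjusted p = 0.804; 0.16 on slide 1 and 0.09 on slide 2). Without knockout 2 or control 1 the difference turned to -0.26 or -0.29. RefSeq lists a read-through gene, Atrip-trex1, over the same stretch, so the probe may report either transcript.

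Downstream of these sensors the differences were small apart from Irf7. Of 20 tested partners and modifiers of cGAS-STING signalling, 1 fell with the slide block, Irf7, which amplifies interferon production (difference -4.35; limma with slide block, adjusted p = 0.00855), and 0 rose; the median was -0.02. The partners nearest to STING were not called: Tbk1, its kinase, differed by 0.18 (0.28 on slide 1 and 0.08 on slide 2), Irf3 by -0.15 (-0.20 and -0.10), and Ikbke, a kinase related to TBK1, by -0.42 (adjusted p = 0.399). Trim32, a ubiquitin ligase, differed by 0.30 (adjusted p = 0.339). Ifnb1 and Cxcl10, outputs of the pathway, were not among the genes tested.

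The inflammasome partners of AIM2 and the nucleases that act beside TREX1 gave no called gene. Of 9 tested inflammasome genes 0 fell and 0 rose in the fit with the slide block, and their median difference was -0.18; Nlrc4 differed by -0.41, Casp4 by -0.46 and Naip1 by 0.32 (limma, adjusted p = 0.261, 0.397 and 0.378). Pycard, which encodes ASC, differed by -0.14 and Casp1 by -0.05. Among 13 nucleases and clearance genes 0 were called either way and the median was 0.14. Their lowest members were Adar, which edits double-stranded RNA, at -1.18 and Samhd1, a dNTP hydrolase, at -0.64 (adjusted p = 0.198 and 0.169), both lower on each slide. Rnaseh2c, a subunit of RNase H2, differed by 0.50 (adjusted p = 0.156). Of 20 other DNA-binding sensors 0 were called, their median was -0.0024 and their differences ran from -0.17 to 0.33; Xrcc6, which encodes Ku70, differed by 0.33, Banf1 by 0.21 and Hmgb1 by 0.16 (adjusted p = 0.298, 0.467 and 0.469).

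**Figure D4:**
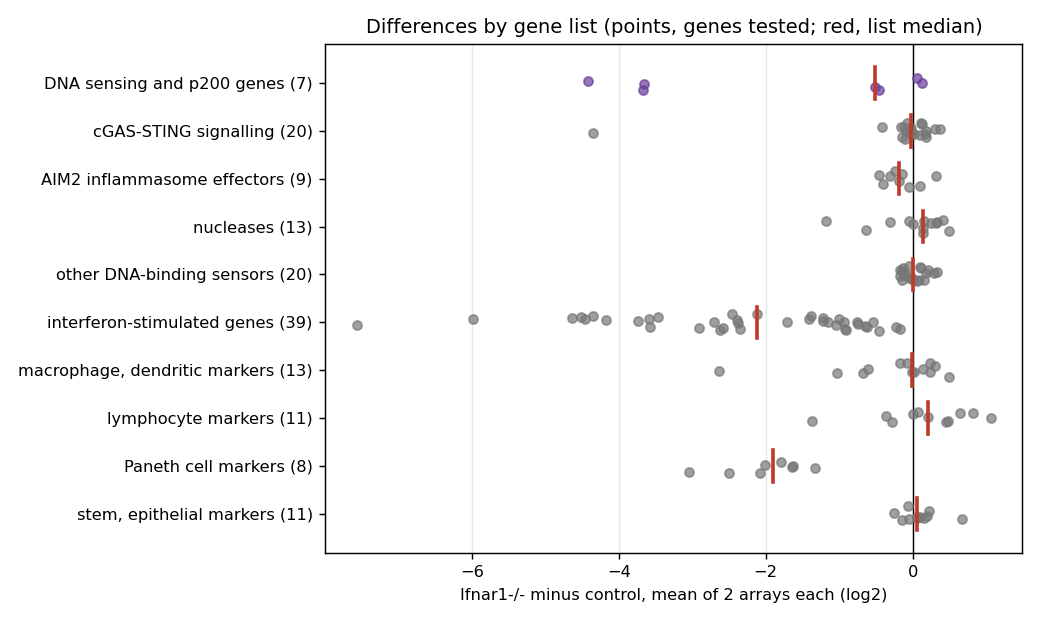
Ifnar1-/- minus control difference (x axis, log2) of each tested gene, by list, with the number tested in brackets and the list median as a red line. Of the DNA sensing and p200 genes, Cgas, Sting1, Aim2 and Trex1 lie between -0.51 and 0.12; Ifi203, Ifi204 and Mndal lie lower, with dim knockout signals entering as measured.

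Interferon-stimulated genes are given for comparison. The 39 tested interferon-stimulated genes had a median of -2.12 (15 called lower with the slide block, 0 higher). Those called were Oas3, Ifi44, Trim30a, Ifit3, Rtp4, Irf7, Ifit1, Xaf1, Rsad2, Oas1a, Parp14, Bst2, Samd9l, Ifi27 and Eif2ak2, from -7.56 for Oas3 to -1.05 for Eif2ak2, with dim signals entering as measured. Because knockout signals of Ifi203, Ifi204 and Mndal were partly or wholly dim, their place among these genes is not given. The list was also brighter in control 1 than in control 2, in 34 of the 39, by a median of 0.71 on the log2 scale. The same gap was 2.85 for Ifi203, 2.20 for Ifi204 and 1.68 for Mndal. For Cgas, Aim2, Sting1 and Trex1 it was 0.17, -0.28, -0.36 and -0.83. In the knockout, sample 1 minus sample 2 had a median of -0.30 over the list. That knockout gap was -1.81 for Ifi203, 1.09 for Ifi204 and 1.84 for Mndal, with dim signals entering as measured. For Cgas, Aim2, Sting1 and Trex1 the knockout gap was 0.66, -2.52, -1.06 and -0.76. Over the whole array, the 446 tested genes whose window holds the response element core had a median difference of -0.01, against 0.04 for the 11809 tested genes with a window, and 34.3% of them were lower on both slides, against 25.7%.

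Immune cells can express p200 genes strongly, so their markers are given beside these results. Of 16 macrophage and dendritic cell markers, 10 and 13 were well above background in knockout 1 and 2, against 13 and 13 in control 1 and 2, and C1qc, Itgax and Mrc1 were below that mark on all 4 arrays. Their summed signal, relative to the 75th percentile, was 242 and 361 in the knockout, against 248 and 373 in the control, most of it from Itgam. Without Itgam and Lyz2 it was 31.4 and 23.7 in the knockout, against 31.7 and 25.7 in the control. Most of that remainder came from Csf1r, at 4.70 and 4.36 in the knockout, against 4.74 and 4.47 in the control. The sums thus rest mainly on Itgam and Csf1r and do not measure how many such cells were present. Lyz2, a lysozyme gene, was the 1 marker called (difference -2.64; limma with slide block, adjusted p = 0.0050), and Cd14 differed by -1.03 and C1qa by 0.49 without passing. Lymphocyte markers summed to 4.38 and 5.80 in the knockout, against 3.99 and 4.50 in the control; 11 and 11 of the 14 with a probe were well above background in the knockout, against 9 and 9 in the control, and Cd2 and Ms4a1 were below that mark on every array. Gzma differed by 1.06, Cd79b by -1.38 and Lck by -0.37, none called.

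Stromal and endothelial markers summed to 6.84 and 7.04 in the knockout, against 5.94 and 7.06 in the control, with 4 and 6 of 11 well above background in either group; Cdh5, Col1a1, Dcn, Lum and Pdgfra were dim on all 4 arrays, and 0 of the 4 tested were called (Col3a1 0.95, Col1a2 0.37 and Kdr 0.08). Of 11 tested stem cell and epithelial markers 0 were called either; Tnfrsf19 differed by 0.67 and Ascl2 by 0.22. Paneth cell markers were lower in the knockout. The 8 with a probe summed to 140 and 239 in the knockout, against 547 and 677 in the control. Of these markers 7, Clps, Ang4, Mmp7, Lyz1, Defa26, Defa3 and Itln1, fell with the slide block, by 3.04 to 1.63 on the log2 scale. Control 1 was brighter than control 2 in 1 of the 8, and knockout 1 minus knockout 2 had a median of -0.93 over them. The part of Paneth cells in the p200 result was not tested. In sorted bulk samples, fewer cells of a type and less RNA per cell cannot be told apart.

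For the 3 genes that were well above background on all 4 arrays, the closest patterns among 14802 named genes were sought by Euclidean distance over the 4 mean-centred log2 values. Cgas was nearest to Lrrc39 (distance 0.06) and Cldn23 (0.09), Sting1 to Podnl1 (0.08) and Btg3 (0.08), and Trex1 to Ndrg1 (0.03) and Dnaaf2 (0.04). With 4 arrays these are descriptions of profiles only.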

How the data were processed

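RNA from 4 sorted samples was amplified with a whole-transcriptome kit and labelled with Cy3, per the labels' protocols. The deposited scanner tables hold spot intensity on a linear scale, background-subtracted by the authors with Agilent Feature Extraction 12.0.3.1 per the file headers (11.5.1.1 per the submitters' processing notes). The deposited series table holds that intensity times 1 constant per array (5.60 to 6.68); its column medians were 239 and 223 in the knockout and 249 and 231 in the control, it is linear and not centred between genes, and the target of its scaling is unknown. The scanner's spot flags were used as deposited.

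Control spots and outlier spots (111 to 172 per array) were left out, spots of a probe were averaged, and the log2 signal minus each array's 75th percentile was taken. A probe was kept where both arrays of 1 or both groups had it well above background, and a gene was represented by its brightest kept probe. Accessions without versions were matched to RefSeq (GRCm38.p6), which named 28331 of 55681 probes; the array annotation uses another build, so gene coordinates are not given and windows are those of the RefSeq table. Groups were compared with limma 3.58.1 in R 4.3.3 (variance trend on intensity; Benjamini-Hochberg adjusted p under 0.05, over 24866 genes), without and with the replicate number as a block. The headers show that the number is also the slide: the knockout 1 to 2 and control 1 to 2 differences had a Pearson r of 0.563 across genes, which are not independent replicates. The number of arrays limits the precision.

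The rule for named genes takes all 8 genes, Ifnar1, and in each of the other lists the called genes and the 3 with the smallest p in the block fit. Tbk1, Irf3, Pycard, Casp1, Itgam, Csf1r, Adgre1, Ifnb1 and Cxcl10 were named after their values were seen, for their place in the pathway or their level. The genes, the 12 lists and the tests were chosen with earlier results of these data known.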

Additional observations from a re-analysis of the deposited data

How the results depend on the processing

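With the replicate number as a block, 121 genes were called, and without it 0; 0 were also called under quantile or median scaling, normexp, the authors' table, either filter, both probe rules, kept outliers and no variance trend, each without the block. Leaving out 1 array in the fit without the block gave 17 (without control 1) to 151 genes (without knockout 2), with 44 without knockout 1 and 68 without control 2; the lone sample of a group is then assumed to vary like the others. Combinations with the block, added after seeing the data, gave 156 genes probe by probe, 892 without the filter, 362 with normexp and 0 without the variance trend. The median over the DNA sensing and p200 genes was -1.67 with no filter, with or without the block, since Ifi205 then enters, and ran from -1.20 (without knockout 2; -0.79 without knockout 1) to -0.55 (without control 2) as arrays were left out; it moved by less than its spread between slides under the other settings. The count lower on both slides was 2 of 3 when a probe had to be well above background on each of the 4 arrays, which drops Mndal, Ifi203, Ifi204 and Aim2, and 5 or 6 otherwise. As arrays were left out, the difference of Aim2 ran from -1.20 (without knockout 2; -0.08 without control 1) to 1.31. The difference of Trex1 ran from -0.29 (without control 1; -0.26 without knockout 2) to 0.54. The difference of Sting1 ran from -1.04 to 0.021 (without knockout 1). Mndal passed with the block, with the block probe by probe (adjusted p = 0.011), without the filter or with normexp (adjusted p = 0.00888; difference -1.35), and without knockout 1 or control 2 in the fit without the block. Ifi203 and Ifi204 passed with the block and normexp (limma, adjusted p = 0.0493 and 0.0382; differences -2.31 and -0.78) and with the block and no filter, and Ifi203 also without knockout 2 or control 2 (adjusted p = 0.0123 and 0.00599). The normexp setting included an offset of 50, which compresses dim signals, so its calls do not reflect background correction alone. The cause of these shifts was not tested. Low signal over background limits Ifi204, Ifi205, Aim2, most Ifi203 probes and, in knockout 2, Mndal.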

Other observations

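Genes that flank the p200 cluster in RefSeq order gave 2 with a signal that passed the filter. Ackr1, an atypical chemokine receptor gene on the Aim2 side, was at -3.73 and -3.57 in knockout 1 and 2, against -4.05 and -3.36 in control 1 and 2, a difference of 0.06 (limma with slide block, adjusted p = 0.969). Olfr433, an olfactory receptor gene on the Ifi205 side, was at -3.22 and -3.17 in the knockout, against -4.38 and -2.26 in the control, a difference of 0.13 (adjusted p = 0.947). Neither showed the gap seen in Ifi204, Mndal and Ifi203, but neither was bright enough to. The lowest signals well above background stood at -4.55 to -4.22, so a fall of that size could not have been measured in them.

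Itgam, a myeloid integrin gene, gave 7.71 and 8.39 in the knockout, against 7.73 and 8.41 in the control (log2 signal minus the 75th percentile of its array), while Adgre1, which encodes F4/80, gave -4.16 and -3.06 in the knockout, against -4.03 and -3.67 in the control. Atrip, the neighbour of Trex1, was at -0.59 and -0.72 in the knockout, against -1.19 and -0.87 in the control, a difference of 0.38 (limma with slide block, adjusted p = 0.467).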
